A study of Mus musculus with 24 samples.

Results

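Unnamed gene models are genes of the mouse annotation that carry a provisional symbol, either Gm with a number or a clone name ending in Rik. They were taken from the table of peaks of RNA bound to STAU2 in embryonic cortex. All rows located in a 3′ UTR or an exon whose symbol is Gm plus digits or ends in Rik were kept, without reference to any measured value. This gave 703 rows in 577 genes, out of 18975 rows in the whole table and 14297 rows with a gene. Of the 703 rows, 439 carried a Gm symbol and 264 a Rik symbol. The table places 148 of them in a 3′ UTR and 555 in an exon. They lie on 695 merged peaks, 8 of which hold 2 members each.

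STAU2 is a double-stranded RNA-binding protein that takes part in RNA transport and localization in neurons and in dividing neural progenitors. A provisional symbol covers unlike kinds of gene. A processed pseudogene is a copy of a spliced messenger RNA that was inserted back into the genome, and its sequence can be nearly the same as that of the parent gene. A long noncoding RNA is a transcript without a known protein, which can stand alone between genes (lincRNA), run against another gene (antisense) or start next to a coding gene's promoter. Other models overlap a named coding gene on the same strand, or are small RNAs processed from an intron of a host gene.

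The samples are brain cortex of C57BL/6 embryos at 4 stages, from the youngest E11.5 through E13.5 and E15.5 to the oldest E17.5, with 3 immunoprecipitations against STAU2 at each stage. The labels name no other treatment or genotype. They do not tie replicates to separate animals, and the p-values cover only the spread between libraries, which may be technical. Inputs were not analysed here, so the amount of an RNA and its binding cannot be told apart. The design asks which RNAs bound to STAU2 change over these stages.

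Many members closely match another gene, and 4 pairs show how close such copies can be. Each line below gives 30 bases of a member's peak and the same stretch of its coding copy, 5′ to 3′, from GENCODE vM21 transcripts on GRCm38, with the base that differs in capitals. They are the pseudogenes of Hmga2 (chr1:176835886-176836202, plus strand), H3f3a (chr13:117358208-117358518, minus strand) and Eef1a1 (chr2:40555827-40556137, plus strand), and the antisense model Gm15564 (chr16:35981522-35981956, minus strand). Levels or changes of all 4 members are described below.
Gm38158: gacccaaaggcagcaaaaacaagagTccct
Hmga2: gacccaaaggcagcaaaaacaagagCccct
Gm6421: ccctccgtgaaatcagacgctatcagaagG
H3f3a: ccctccgtgaaatcagacgctatcagaagT
Gm13456: agatgggaaagggctccttcaagtacgccG
Eef1a1: agatgggaaagggctccttcaagtacgccT
Gm15564: tcacccactaatagggaacgtgagctgggT
Lars2: tcacccactaatagggaacgtgagctgggA
Over the exonic bases of the peak, Gm38158 and Hmga2 were identical at 174 of 176 aligned bases, Gm6421 and H3f3a at 305 of 307, Gm13456 and Eef1a1 at 308 of 311, and Gm15564 and Lars2 at 70 of 71. As background, the Gm15564 stretch is also known from large-subunit ribosomal RNA, and no transcript other than Lars2 passed the copy criteria for it in the annotation searched.

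Gene-row counts ranged from 4688215 to 6374892 per library. The E11.5 libraries stood apart in scaling. TMM, the normalization used here, sets the bulk of rows near a change of 0, whereas dividing by the summed counts of all gene rows (called total scaling from here on) put the median log2 change of all rows at 1.21 for E13.5 against E11.5 and 1.20 for E17.5 against E11.5. Every log2 change below is therefore relative to the bulk of rows, unless total scaling is named. Shares of gene-row counts are not TMM-scaled. Levels are counts scaled to a common library size with TMM (CPM). Where 4 sets of values follow one another with no stage named, they run from the youngest stage to the oldest. All 6 cortical progenitor markers had rows and summed to 506 to 1150 CPM in any library. The 4 of 6 cortical neuron markers with rows summed to 414 to 496 CPM, then 1590 to 1680, then 1970 to 2550 and finally 1700 to 2230. The 3 intermediate progenitor markers summed to 88.1 to 125 CPM, then 296 to 340, then 272 to 328 and finally 83.0 to 90, and 3 of 4 interneuron markers to 129 to 169, then 34.2 to 40.6, then 84.4 to 115 and finally 187 to 233. Of the other cell types, all 6 meningeal markers had rows, and their summed level was 206 to 254 CPM, then 300 to 319, then 30.7 to 39.9 and finally 3.30 to 3.62. The choroid plexus marker Ttr was at 4.88 to 7.66 CPM, then 443 to 573, then 59.9 to 114 and finally 1.27 to 3.02, and the 2 of 5 blood markers with rows summed to 28.6 to 33.0 CPM at E11.5 and at most 1.02 in any later library. The part of these cells in the results was not tested. In such bulk samples fewer cells of a type and less RNA per cell cannot be told apart.

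Such near-identical copies were common among the members. A copy was called where at least 80% of a peak's exonic sequence matched a transcript of another, non-overlapping gene at 95% identity or more. Of the 703 members, 164 (23.3%) had one, against 298 of 11915 other 3′ UTR and exon rows (2.50%). By GENCODE biotype, 221 member rows are protein coding, 185 pseudogenes, 122 antisense, 79 lincRNA, 53 processed transcripts, 22 of the class TEC (models awaiting experimental evidence), 13 bidirectional promoter long noncoding RNAs and 7 small RNAs, and 1 has no match. The copies sit mainly in the pseudogenes, of which 137 of 185 (74.1%) had one, 135 of them with a coding gene. In the protein-coding class 23 of 221 had a copy (10.4%), and among the 289 long noncoding rows of any kind 2 did. The pseudogenes copy many kinds of gene. Ribosomal protein genes, whose processed copies are numerous in mammalian genomes, account for 7 of the 135.

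The members stand in different relations to their neighbours. The peaks of 113 members overlap another gene on the same strand, 60 lie within 5 kb downstream of one, 196 overlap a gene on the other strand only, and 334 do none of these. All 7 small RNA rows lie within a host gene on the same strand. Peak width ranged from 145 to 909 bases with a median of 367, and a median of 81.2% of a peak lay in annotated exons. Most genes had a single row (483), while 94 had more, up to 5 in 2310022A10Rik and Gm3764.

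By stage, the members together held 5.03% ± 0.613 (SD, n = 3) of gene-row counts, then 7.15% ± 0.789, then 6.73% ± 0.228 and finally 7.23% ± 1.51. The library values ranged from 4.41% to 8.53%, and the E17.5 libraries overlapped those of the other stages. These shares are of summed counts, as in total scaling, and can move unlike the TMM changes given below. Pseudogenes were the largest class in every library, with 2.80% ± 0.557 of gene-row counts, then 4.59% ± 0.434, then 4.33% ± 0.401 and finally 3.64% ± 0.570. Protein-coding models held 0.527% ± 0.0639, 1.15% ± 0.346, 1.24% ± 0.181 and 2.11% ± 0.850 in the same order. The E17.5 libraries held 1.944%, 1.361% and 3.035%. Part of this is the single row of Gm10800, which varied widely between libraries of a stage and passed no comparison, as described below. The share of the class without that row was not computed. lincRNAs, with 79 rows, held between 0.0823% and 0.206% in any library. Members with a near-identical copy made up 84.0% ± 2.19 of the members' counts, then 75.7% ± 2.64, then 71.9% ± 2.07 and finally 64.3% ± 2.27.

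**Figure D1:**
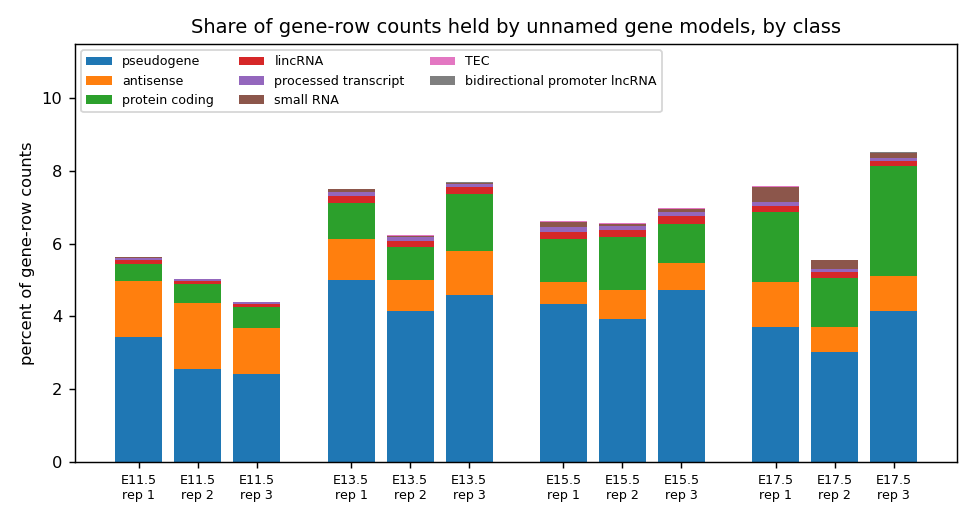
Percent of gene-row counts held by unnamed gene models in each of the 12 libraries, stacked by GENCODE class. Pseudogenes are the largest class in every library, and the total ranges from 4.41% to 8.53%.

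The highest member was Gm15564, an antisense model within Kpna1. It had 24790, 35850 and 25080 CPM in the 3 libraries of E11.5, 8609, 5991 and 8988 at E13.5, 3390, 5118 and 4494 at E15.5, and 9577, 4050 and 6525 at E17.5. All E11.5 libraries lay above all later ones. It fell by 1.86 ± 0.38 (log2, SE) at E13.5 against E11.5 (edgeR, adjusted p = 0.00138) and by 2.09 ± 0.38 at E17.5 against E11.5 (adjusted p = 8.84e-05). Under total scaling the first of these fell short of the threshold (edgeR, adjusted p = 0.112). A transcript of Lars2, the mitochondrial leucyl-tRNA synthetase, matches the exonic bases of the Gm15564 peak. The 1 Lars2 row, in the 3′ UTR, had 64210 ± 20880 CPM (SD, n = 3) at the youngest stage and 8153 ± 2676 at the oldest. Whether that row covers the matching stretch was not tested. The intron row of Kpna1 on the other strand had 18380 ± 11490 and 2794 ± 732 CPM at the same stages. Gm15564 alone held 1.495% ± 0.265 of gene-row counts at E11.5, out of 1.54% ± 0.278 for all antisense models.

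Most of the next highest were copies of abundant messenger RNAs. Gm3788 is a pseudogene of Tmsb10, an actin-binding thymosin, and averaged 2905 CPM over the 12 libraries. Gm10800 averaged 2501 CPM, Gm13456 (a copy of the translation elongation factor Eef1a1) 2386, Gm6421 (a copy of the histone H3.3 gene H3f3a) 2088 and Gm7729 (matching the RNA-binding protein Hnrnpa1) 1907. Gm13456 had 3455, 5997 and 3980 CPM, then 2317, 1867 and 2278, then 1878, 1943 and 1447 and finally 1203, 1254 and 1016. The 3 libraries of E17.5 lay below all others. It fell by 1.95 ± 0.35 on the log2 scale at E17.5 against E11.5 (edgeR, adjusted p = 7.71e-05), and its change was -0.75 (adjusted p = 0.0581) under total scaling. Gm3788, Gm6421 and Gm7729 did not pass the test in any of the 4 comparisons.

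Counts and peak scores gave unlike pictures of these copies. The score is the authors' own value for each merged peak and is used here only to describe peaks. Pseudogenes with a near-identical copy had a median of 475 counts per library and a median score of 25.5. Pseudogenes without a copy had 94.1 counts at a score of 18.8, and the other 3′ UTR and exon rows 79.1 counts at a score of 30.6. Counts per unit of score were thus 18.4 at the median in pseudogenes with a copy, 4.02 in those without and 2.25 in the other rows. Antisense models had a median of 21.2 counts, a score of 32.6 and 0.569 counts per unit of score, and TEC models 14.8 counts, a score of 26.9 and 0.498 counts per unit of score. Among members without a copy the median was 1.70. In 97 of the 122 antisense rows a row of the gene on the other strand overlaps the peak, with counts of its own, while the score is given per merged peak. The part of this overlap in their low counts per score was not tested.

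**Figure D2:**
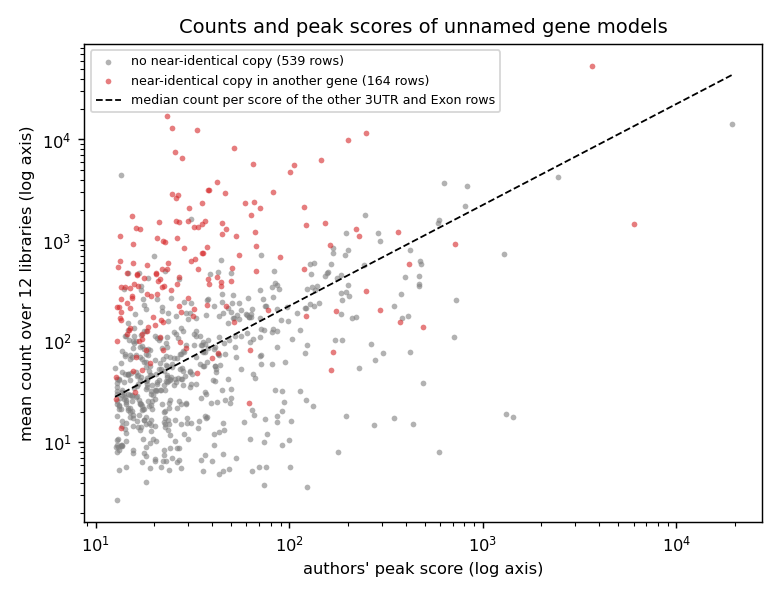
Mean count over 12 libraries against the authors' peak score for the 703 member rows, both on log axes. Red points are the 164 rows with a near-identical copy in another gene, and the dashed line marks 2.25 counts per unit of score, the median of the other 3′ UTR and exon rows.

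For 94 of the 135 pseudogene rows with a coding copy, the copied gene had a row of its own, and for 41 it had none. The pseudogene row had the higher mean count in 46 of the 94 pairs, but the lower score in 77. Median scores were 26.5 for the pseudogenes and 102.9 for the highest row of the copied gene. The row of the copied gene need not be the stretch that was copied. A wide gap was that of H3f3a, whose 3′ UTR row averaged 46.8 counts per library, against 13010 for its pseudogene Gm6421. Eef1a1 and Hnrnpk had no gene row, while their pseudogenes Gm13456 and Gm7964 averaged 12380 and 9830 counts. How reads that match several places were assigned is not given in the sources used here, and whether these counts come from the member or from its copy was not tested.

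Across the 4 stages, 316 of the 684 members that passed the filter on low counts changed (edgeR F test, adjusted p under 0.05), or 46.2%, against 46.6% of all 14106 rows tested. The filter removed 19 members. From E11.5 to E13.5, 127 members (18.6%) changed, 54 higher and 73 lower, where 17.2% of all rows did (9.36% higher, 7.88% lower). The libraries of the 2 stages did not overlap in 228 members (background 34.0%). Between E13.5 and E15.5, 1 member was lower and 0 higher, where 0.319% of all rows changed (0.0425% higher, 0.276% lower); DESeq2 also called 1, and 36 had an unadjusted p under 0.05. From E15.5 to E17.5, 71 members (10.4%) changed, 36 higher and 35 lower, where 13.1% of all rows did (5.89% higher, 7.17% lower), and 159 did not overlap (background 30.5%). At E17.5 against E11.5, 329 members (48.1%) changed, 144 higher and 185 lower, where 51.9% of all rows did (25.9% higher, 26.1% lower), and 353 did not overlap (background 57.0%). Over all stages and at E13.5 against E11.5 the called share is near that of all rows, and in both comparisons of E17.5 it is below it. The split depends on scaling: under total scaling it was 354 higher and 12 lower at E13.5 against E11.5, 30 and 49 from E15.5 to E17.5, and 359 and 69 at E17.5 against E11.5.

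By class, pseudogenes and lincRNAs had more rows lower than higher relative to the bulk of rows. At E17.5 against E11.5, 20 pseudogene rows were higher and 82 lower of 184 tested, with a median change of -0.83, against 0.02 over all rows. At E13.5 against E11.5 it was 4 higher and 34 lower, with a median of -0.39. Under total scaling the direction flipped, to 68 higher and 31 lower with a median of 0.33, and to 81 and 2 with a median of 0.78, both medians below those of all rows under that scaling. The protein-coding models had 55 higher and 32 lower of 218 at E17.5 against E11.5 (median 0.26), antisense models 24 and 23 of 112 (median 0.50), lincRNAs 16 and 29 of 79 (median -0.42), and processed transcripts 11 and 12 of 52. Bidirectional promoter long noncoding RNAs had 10 higher and 1 lower of 13, with a median of 1.74, and total scaling gave 11 and 1. Under that scaling lincRNAs were 33 higher and 16 lower, protein-coding models 137 and 8, antisense models 66 and 6, and processed transcripts 29 and 4. Beside these, the list of named long noncoding RNAs (49 genes, of which 23 had 31 rows in a 3′ UTR or exon) had 6 rows higher and 12 lower of 29 tested, and 14 higher and 7 lower under total scaling. Differences between classes were not tested.

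**Figure D3:**
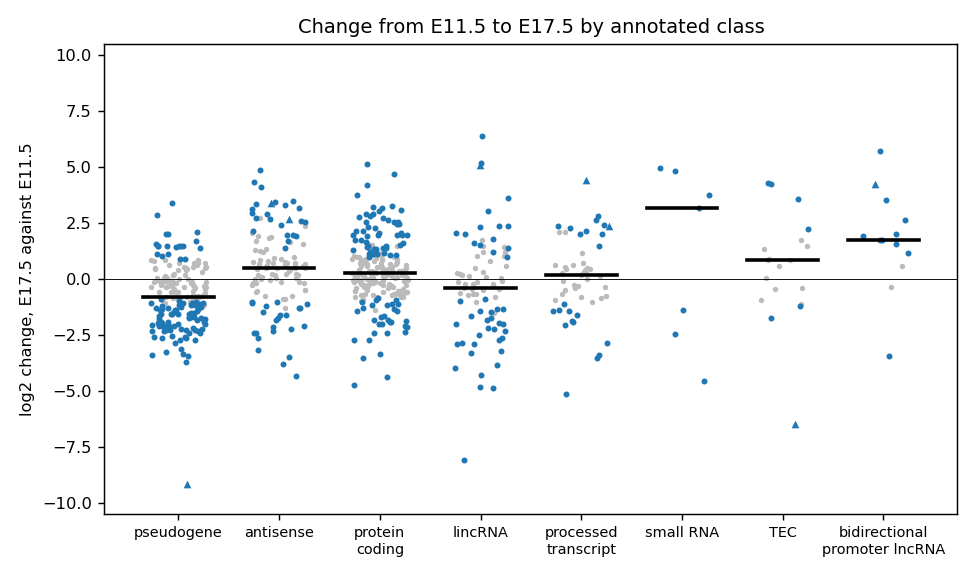
Log2 change at E17.5 against E11.5 of each tested member by class, under TMM scaling. Blue points passed the test, grey points did not, triangles are bounds where a stage had 0 counts, and bars are class medians, lowest in pseudogenes (-0.83) and highest in the 7 small RNA rows (3.15).

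The pseudogenes changed with stage much as the gene they copy. Across the 94 pairs the median change at E17.5 against E11.5 was -0.94 in the pseudogenes and -0.88 in the copied genes, the sign was the same in 83, and Pearson's r across the pairs was 0.897. Without the pair of Gm38158 and Hmga2, where the pseudogene had 0 counts in every E17.5 library, r was 0.819 over 93 pairs, a check chosen after the data were seen. At E13.5 against E11.5 the medians were -0.45 and -0.58, with r of 0.825, and 0.772 without that pair. Between E13.5 and E15.5, where 0 of these rows changed, r was 0.534, and 0.441 without that pair. From E15.5 to E17.5 r was 0.793, and 0.61 without that pair. These are descriptions across genes that share libraries, and the pairs also share sequence.

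**Figure D4:**
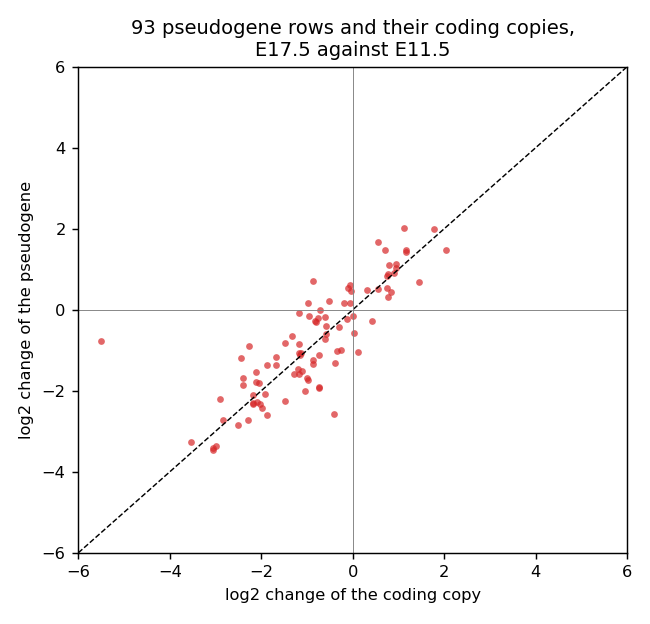
Log2 change at E17.5 against E11.5 of 93 pseudogene rows (vertical axis) and of the highest row of the coding gene they copy (horizontal axis), with the line of equal change dashed. The points lie along the line, and the pair Gm38158 and Hmga2 is left out because its pseudogene was at 0 counts at E17.5.

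Gm38158, the copy of Hmga2, had the largest fall of the members at E17.5 against E11.5. Hmga2 is a chromatin protein of early progenitors. Gm38158 had 110, 89.6 and 86.4 CPM, then 5.15, 7.23 and 2.30, then 1.59, 1.23 and 2.0, and finally 0 counts in all 3 libraries of E17.5. The stages E11.5, E13.5 and E15.5 did not overlap. It was at least 576-fold lower at E17.5 than at E11.5, taking 3 counts summed over the libraries as the floor (edgeR, adjusted p = 7.76e-10), and it fell by 4.29 ± 0.43 at E13.5 against E11.5 (adjusted p = 1.00e-06). The highest Hmga2 row went from 1297 ± 344 CPM (SD, n = 3) to 37.8 ± 14.6, 9.85 ± 1.14 and 0.362 ± 0.627 over the same stages.

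Other falls in the copies were those of Pabpc1, Usp1, Tmed2 and Lsm12, chosen after their values were seen except for the Usp1 copy. Both rows of Gm16580, a copy of the poly(A)-binding protein Pabpc1, fell, the row with 1484, 1782 and 1625 CPM at E11.5 to 169, 165 and 110 at E17.5 (log2 change -3.46 ± 0.39, edgeR adjusted p = 2.94e-07). Pabpc1 itself had 5857 ± 1764 and 706 ± 232 CPM. Gm5841, identical to the deubiquitinase Usp1 over its peak, went from 212, 219 and 108 CPM at E11.5 down to 16.4, 17.9 and 17.4 at E17.5. It fell by 3.38 ± 0.40 (edgeR, adjusted p = 5.37e-07), while Usp1 changed by -2.98. Gm10698 (Tmed2, a vesicle cargo receptor) fell by 3.27 ± 0.38 and Gm9727 (Lsm12) by 2.85 ± 0.45. Rises were fewer, and the 2 given here were also chosen after their values were seen. Gm5802, a copy of the splicing-associated Snrpn, rose from 7.95, 9.11 and 9.77 CPM at E11.5 to 45.0, 34.9 and 26.2 at E17.5 (1.99 ± 0.44, edgeR adjusted p = 0.000678), and Gm5837, a copy of the helicase Ruvbl1, rose by 2.01 ± 0.48.

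Some pseudogenes varied little over the 12 libraries. The member with the lowest variation among those at 20 CPM or more was Gm5487, a copy of the replication helicase subunit Mcm7, with 30.01 to 49.0 CPM over the 12 libraries. Gm7964 (the RNA-binding protein Hnrnpk) ranged from 1202 to 1950 CPM, Gm6505 (Yae1d1) from 63.5 to 118, and Gm6851 (the prolyl isomerase Pin4) from 161 to 312. The lincRNA Gm16973 completed the 5 steadiest, with 23.7 to 47.1 CPM in the row with the lower variation. None of these 5 passed the test in any of the 4 comparisons. They were chosen for low variation over the same libraries, so this outcome is built into the choice.

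Coding models that overlap a named gene on the same strand held 2 of the 8 largest rises to E13.5. Gm49948 overlaps Pcp4, a calmodulin-binding protein of neurons, and its 3′ UTR row (chr16:96525454-96525869) had 3.24, 3.80 and 1.5 CPM, then 120, 113 and 82.7, then 132, 164 and 102 and finally 70.2, 70.2 and 83.7. Every later library lay above every E11.5 library. The rise was 5.19 ± 0.44 on the log2 scale (edgeR, adjusted p = 3.86e-08). Gm43720 overlaps Gpc2, a heparan sulfate proteoglycan of developing neurons, and had 37.1, 55.8 and 53.0 CPM, then 674, 330 and 378, then 802, 735 and 356 and finally 804, 842 and 1030. Its E11.5 libraries also lay below all others. It rose by 3.25 ± 0.42 at E13.5 and by 4.20 ± 0.43 at E17.5, both against E11.5 (edgeR, adjusted p = 1.22e-05 and 9.49e-08). Neither Pcp4 nor Gpc2 had a gene row of its own, and these peaks are listed under the provisional symbol.

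Other coding models rose or fell by E17.5. All 3 rows of Gm38393, which spans the imprinted Snrpn gene, rose at E17.5 against E11.5, the highest from 93.4, 113 and 116 CPM to 373, 607 and 285 (1.98 ± 0.39, edgeR adjusted p = 0.000215). 4930402H24Rik, which overlaps no other gene, rose by 2.43 ± 0.38, from 26.8, 45.2 and 22.2 CPM to 210, 167 and 132. E130114P18Rik fell from 306, 314 and 518 CPM at E11.5 to 118, 89.3 and 87.7 at E17.5 (-1.95 ± 0.38, edgeR adjusted p = 0.000197), and did not pass under total scaling (adjusted p = 0.0838). All 3 rows of 2610318N02Rik fell. Its highest row had 141, 93.0 and 154 CPM, then 29.4, 39.6 and 16.1, then 16.2, 23.0 and 15.1 and finally 2.69, 6.15 and 5.66, and fell by 4.74 ± 0.46 (edgeR, adjusted p = 4.13e-08). Apart from 2610318N02Rik, the models of this paragraph were chosen after their values were seen.

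Among lincRNAs, Gm29260 rose and then fell. It lies 757234 bases from Pou3f3, a transcription factor of cortical progenitors and upper-layer neurons, on the same strand (chr1:41938190-41938534). It had 8.25, 8.35 and 3.38 CPM, then 58.3, 106 and 62.5, then 68.5, 93.2 and 103 and finally 31.4, 37.1 and 32.4. The middle stages lay above both ends without overlap. The rise to E13.5 was 3.49 ± 0.42 (edgeR, adjusted p = 6.76e-06), and the fall from E15.5 was 1.39 ± 0.37 (adjusted p = 0.0149), a call lost without E15.5 replicate 3, E17.5 replicate 1 or E17.5 replicate 3 (adjusted p of 0.0557, 0.0624 and 0.0546). Gm28175, 391281 bases from the same gene, had 65, 50 and 59 counts at E17.5 against 0, 1 and 0 at E11.5, a ratio of 84.7 with a 95% exact binomial interval from 15.01 upward. Between E15.5 and E17.5 it rose by 3.12 ± 0.51 (edgeR, adjusted p = 0.000349). Pou3f3 itself changed by 1.35 ± 0.35 at E13.5 and 2.34 ± 0.36 at E17.5, both against E11.5.

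2900079G21Rik runs against Arpp21, a cAMP-regulated phosphoprotein of neurons. It had 0 counts in the 3 libraries of E11.5, 1.53, 0.434 and 1.02 CPM at E13.5, 2.94, 2.33 and 2.34 at E15.5, and 7.72, 11.03 and 16.2 at E17.5. No stage overlapped the next. It was at least 34.1-fold higher at E17.5 than at E11.5 (edgeR, adjusted p = 8.57e-07) and rose by 2.19 ± 0.46 from E15.5 to E17.5 (adjusted p = 0.00335). At E13.5 it was at least 2.91-fold higher than at E11.5 (edgeR, adjusted p = 0.0148), a call lost without E11.5 replicate 1 (edgeR, adjusted p = 0.0556). The highest Arpp21 row had 0.251 ± 0.434, 3.89 ± 0.870, 8.96 ± 1.31 and 70.3 ± 26.7 CPM over the 4 stages.

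Several noncoding members fell. E330013P04Rik had 80.1, 63.4 and 51.5 CPM, then 30.5, 51.3 and 51.8, then 20.7, 27.0 and 38.0 and finally 2.85, 3.44 and 3.61. It fell by 3.10 ± 0.40 from E15.5 to E17.5 (edgeR, adjusted p = 3.39e-05), and the E17.5 libraries lay below all others. Gm32061, 6993 bases from the imprinted gene Ndn, went from 33, 42 and 58 counts at E11.5 to 1, 0 and 0 at E17.5, a ratio of 273 with a 95% exact binomial interval from 48.2 upward, while Ndn rose by 2.08 ± 0.37. 2610035F20Rik, 4345 bases from the forebrain transcription factor Zic2, fell by 5.15 ± 0.77 at E17.5 against E11.5 (edgeR, adjusted p = 9.52e-06), and Zic2 fell by 2.16 ± 0.37. Both rows of 1810058I24Rik fell, the larger change being -2.66 ± 0.38, from 110, 86.5 and 135 CPM to 23.3, 16.1 and 13.04. This gene was chosen after its values were seen. Gm38312, a TEC model within Sh3bp4, was at least 91.1-fold lower at E17.5 than at E11.5, with 32, 77 and 24 counts at E11.5 and 0 in every E17.5 library.

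Antisense models were read together with the gene on the other strand. Of 122 antisense rows, 105 lie over a gene on the other strand, and in 97 a row of that gene overlaps the member's peak. The member had a median of 0.164 times the mean count of that row, and more counts than it in 13. At E17.5 against E11.5, over the 84 pairs with both rows tested, the median change was 0.66 in the members and 0.61 in the partners, the sign was the same in 61 and Pearson's r was 0.710. The library kit marks strand, but how the counting treated strand is not stated. Over the 97 pairs the ratio of member to partner mean count ran from 0.00745 to 53.6, so the counts of member and partner differed widely in some pairs. How far reads of a partner enter the counts of a member was not tested. Gm28528 runs against Six3, a homeobox gene of the anterior forebrain and eye. It had 25.6, 37.6 and 9.77 CPM, then 1.81, 4.48 and 0.639, then 1.10, 1.23 and 0.445 and finally 2.85, 2.35 and 2.83, and fell by 3.40 ± 0.55 at E13.5 (edgeR, adjusted p = 0.00018). The 1 row of Six3, which does not overlap this peak, fell by 5.07 ± 0.46. All E11.5 libraries of Gm28528 lay above every later one.

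A930024E05Rik is an antisense model with more counts than its partner, 190 on average against 37.75 in the intron row of Gm44574. It had 5.89, 2.66 and 7.89 CPM, then 38.3, 33.0 and 32.6, then 41.6, 43.9 and 61.9 and finally 11.9, 12.5 and 18.5. The middle stages lay above the ends, as in Gm29260. It rose by 2.65 ± 0.41 at E13.5 against E11.5 (edgeR, adjusted p = 9.83e-05) and fell by 1.78 ± 0.37 from E15.5 to E17.5 (adjusted p = 0.0027). Its nearest coding gene, the demethylase Kdm2b at 7985 bases, had 136.5 ± 33.6 CPM (SD, n = 3) at the youngest stage and 256 ± 44.6 at the oldest. The Gm44574 row rose by 3.40 ± 0.96 at E13.5 against E11.5 (edgeR, adjusted p = 0.0163). From E15.5 to E17.5 that row changed by -1.04 ± 0.68 (edgeR, adjusted p = 0.337). Gm16740, which runs against Mllt11, had 14.4, 38.0 and 13.2 CPM, then 53.3, 147 and 82.3, then 69.7, 192 and 54.0 and finally 104, 371 and 234, and rose by 3.44 ± 0.57 at E17.5 against E11.5 (edgeR, adjusted p = 3.56e-05). Replicate 2 was the highest library at every stage. The overlapping Mllt11 row, with 8990 counts on average against 736.2 for Gm16740, rose by 3.77 ± 0.43 (edgeR, adjusted p = 3.55e-07). Gm16740 was chosen after its values were seen.

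All 7 small RNA rows changed at E17.5 against E11.5, 4 higher and 3 lower, where 51.9% of all rows changed. Under total scaling it was 4 higher and 2 lower. These are small nucleolar RNAs, which guide RNA modification, and their relatives of the Cajal body (scaRNA), each within a host gene. Gm22009, a scaRNA in Kpna4, had 76.0, 78.6 and 39.1 CPM, then 253, 243 and 91.4, then 812, 380 and 483 and finally 3167, 1730 and 558. The E11.5 libraries lay below all others. It rose by 4.82 ± 0.58 (edgeR, adjusted p = 7.03e-07). Its host Kpna4 had 1 row, which fell by 1.92 over the same interval (edgeR, adjusted p = 0.00879). The Kpna4 row varied widely at E11.5, with 50.25 ± 50.25 CPM (SD, n = 3), and had 13.25 ± 1.77 at E17.5.

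Other small RNAs rose as well. Gm22442, a scaRNA in Chd3, rose by 4.94 ± 0.50 (from 8.84, 7.21 and 4.88 CPM to 178, 159 and 312). Gm23547, a small nucleolar RNA in Phb2, rose by 3.15 ± 0.46 and Gm25395, in Atg16l1, by 3.75 ± 0.60. In the other direction, Gm25117 in Nap1l1 had 15.6, 15.6 and 14.7 CPM at the youngest stage and 1.01, 0.362 and 0.471 at the oldest, with no overlap between stages (-4.59 ± 0.48, edgeR adjusted p = 1.22e-07). Nap1l1, its host, fell by 1.25. Gm25117 also has a near-identical coding copy in Eif4a1, whose highest row changed by 0.80 ± 0.34 (edgeR, adjusted p = 0.0525). Gm26397 in Tomm20 fell by 2.47 ± 0.47. Gm22767 in Ppp1r8 fell by 1.37 ± 0.55 (edgeR, adjusted p = 0.0387), a call lost without any of E11.5 replicates 1, 2 or 3 or E17.5 replicates 2 or 3, with values from -1.44 to -1.12. Of the other hosts, the highest Chd3 row rose by 2.31 ± 0.43 and the Atg16l1 row by 1.21 ± 0.45. The Phb2 row changed by -0.93 ± 0.37. The Ppp1r8 row did not pass (-0.47 ± 0.38), and Tomm20 had no row. Except for Gm25117, the small RNAs were chosen after their values were seen.

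Bidirectional promoter models, at low levels, included 2 of the 8 largest rises to E13.5. 1500026H17Rik, whose neighbour Scyl2 starts 152 bases away on the other strand, had 0 counts in all E11.5 libraries, 16, 3 and 10 at E13.5, 8, 14 and 18 at E15.5 and 50, 20 and 45 at E17.5. It was at least 18.7-fold higher at E17.5 than at E11.5 (edgeR, adjusted p = 2.77e-05). At E13.5 it was at least 3.83-fold higher (edgeR, adjusted p = 0.0144), a call lost without E11.5 replicate 1 or E13.5 replicate 1 (edgeR, adjusted p = 0.0537 in both). F730043M19Rik had 0, 1 and 0 counts at E11.5 and 53, 47 and 39 at E13.5, a ratio of 55.1 with a 95% exact binomial interval from 9.73 upward. 1700007L15Rik was the one to fall (-3.44 ± 0.58). It was chosen after its values were seen.

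The remaining members with the largest changes had low counts. 5730522E02Rik, a coding model, had 0, 0.380 and 1.13 CPM, then 1.39, 1.88 and 1.53, then 4.53, 2.88 and 4.01 and finally 15.9, 23.0 and 12.6, each later stage above the earlier ones without overlap. It rose by 2.16 ± 0.42 over the last interval (edgeR, adjusted p = 0.00175). Gm5468, at 0 counts in all E11.5 libraries, had 46, 25 and 59 at E17.5, at least 21.1-fold higher (edgeR, adjusted p = 9.06e-06). Its rise from E15.5 (2.21 ± 0.53) was lost without E17.5 replicate 3 (1.98, edgeR adjusted p = 0.0502). Gm15917, Gm50087 and Gm29521 were also at 0 in those libraries and were at least 10.4-fold, 6.33-fold and 5.19-fold higher at E17.5. Gm26604, antisense to the calcium channel gene Ryr1, rose by 3.0 ± 0.74 at E13.5 against E11.5, from 1, 3 and 0 counts to 20, 38 and 26.

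Falls at low counts were those of lincRNAs in most cases. Gm2694 went from 48, 23 and 32 counts at E11.5 to 9, 7 and 24 at E13.5 (-2.69 ± 0.48, edgeR adjusted p = 0.000493), and Gm41804 from 30, 55 and 36 counts to 14, 21 and 18 (-2.55 ± 0.43, adjusted p = 0.000273). Scaled to CPM, the stages did not overlap in either gene, which was a condition of naming them. Gm11335 had 5.75, 5.07 and 5.12 CPM at E15.5 and 0.336, 0.723 and 1.57 at E17.5, and fell by 2.55 ± 0.57 (edgeR, adjusted p = 0.00455). Calls lost when 1 library was left out included those of 4930447C04Rik, lost without E11.5 replicate 1 or E13.5 replicate 1 (-2.13 and -2.06), 5430405H02Rik, lost without E15.5 replicate 1 or E17.5 replicate 3 (2.28 and 2.02), and A930004D18Rik, lost without E15.5 replicate 3 (-1.66). Gm3716 at E13.5, with 23.9, 3.80 and 7.14 CPM at E11.5, was lost without E11.5 replicate 1 or E13.5 replicates 1 or 3 (-1.44, -2.57 and -2.04). Gm44103, which rose, and C130026L21Rik, which fell, were at under 25 counts in any library. They passed at E17.5 against E15.5 and lost the call in 6 and 7 of the 12 leave-one-out fits.

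The change between E13.5 and E15.5 was that of C130074G19Rik, a 3′ UTR row on chromosome 1. It had 12.4, 14.8 and 14.1 CPM at E13.5 and 4.77, 3.43 and 3.67 at E15.5, without overlap, and fell by 1.79 ± 0.37 (edgeR, adjusted p = 0.0246). Leaving out any of the 6 libraries of these stages ended the call, with changes from -1.94 to -1.70 and adjusted p between 0.0635 and 0.140.

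Some coding models varied widely between libraries of 1 stage. Gm10800 (chr2:98666966-98667300) had the highest peak score of the members and 559, 2515 and 3337 CPM, then 138, 93.4 and 3614, then 56.4, 1873 and 182 and finally 5352, 851 and 11440. Every stage overlapped every other, and no comparison passed. Gm10801, also on chromosome 2, is near identical to Gm10719 on chromosome 9. Both passed the test at E17.5 against E15.5 (3.48 ± 1.06 and 3.51 ± 1.04, edgeR adjusted p = 0.0314 and 0.0275), and lost the call without E15.5 replicate 1 or 3 or E17.5 replicate 1 or 3, with adjusted p from 0.0652 to 0.123 and from 0.0730 to 0.110 and changes from 2.74 to 3.49 and from 3.11 to 3.28. In E13.5 replicate 3 Gm10719 had 43.8 CPM, against 0.417 and 0.723 in the other 2 libraries of that stage.

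Of a list of 28 Gm and Rik models, 8 had a member row. 1500009C09Rik rose from 5.60, 4.17 and 5.26 CPM at E11.5 to 24.4, 35.8 and 28.6 at E17.5 (2.55 ± 0.39, edgeR adjusted p = 1.29e-05). 5330434G04Rik fell by 3.32 ± 0.78, and 2610035D17Rik rose by 1.49 ± 0.47, a call lost without E11.5 replicate 2 (1.11, edgeR adjusted p = 0.0611). C130071C03Rik, a lincRNA 73229 bases from the transcription factor Mef2c, had the highest level of these, with 304, 436 and 358 CPM at the youngest stage and 187, 228 and 182 at the oldest. Its change of -0.88 ± 0.34 passed (edgeR, adjusted p = 0.0317), but was lost without E11.5 replicate 2 or 3 or E17.5 replicate 1 or 3 (-0.90 to -0.74), and was 0.31 under total scaling. 2610307P16Rik, 3110039M20Rik and 4933439C10Rik did not pass in any comparison, with 0.62 ± 0.47, -0.70 ± 0.40 and -0.26 ± 0.59 at E17.5 against E11.5.

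**Figure D5:**
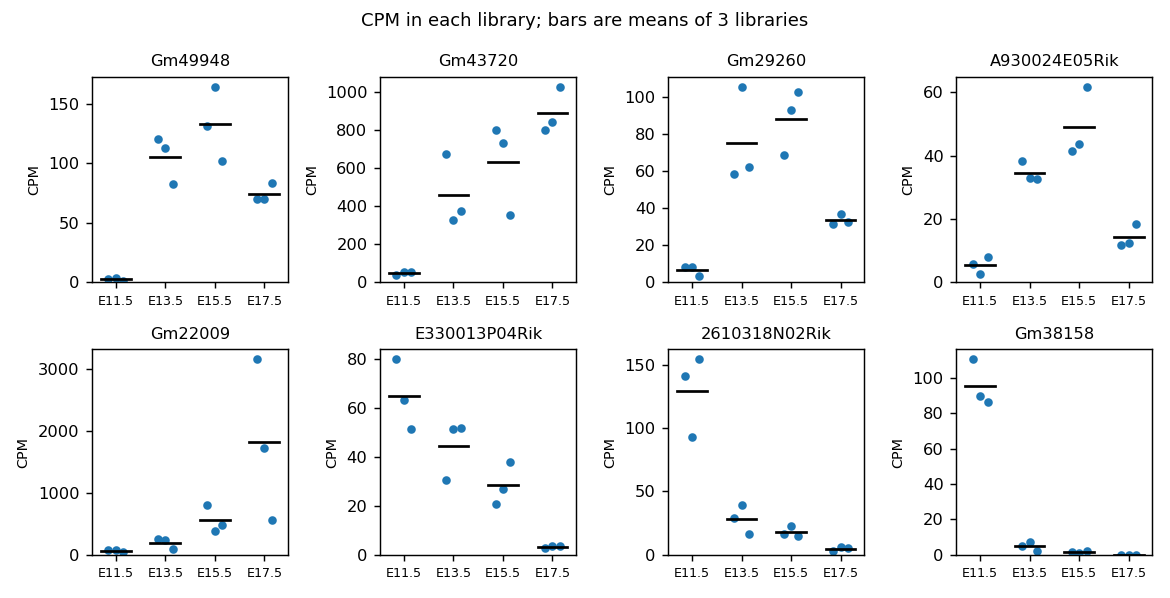
CPM of 8 members in each library (points) and the mean of 3 libraries (bars) by stage, each on its own linear axis from 0. Gm49948, Gm43720, Gm29260 and A930024E05Rik lie lowest at E11.5, Gm22009 spreads from 558 to 3167 at E17.5, and E330013P04Rik, 2610318N02Rik and Gm38158 lie lowest at E17.5.

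STAU2 binds double-stranded RNA, so the peaks were searched for the longest perfect stem (Watson-Crick and G-U pairs, a loop of at least 3 bases). The median was 10 pairs in the 665 members with at least 50 exonic bases and 10 in 11541 other 3′ UTR and exon rows, and 3.01% and 2.88% reached 15 pairs. The median GC content was 48.2% in members and 49.2% in the other rows. The longest member stem, 35 pairs, was in the lincRNA Gm34425, which had 0, 1 and 0 counts at E11.5 and 46, 48 and 54 at E13.5, a ratio of 58.7 with a 95% exact binomial interval from 10.4 upward. Gm22009, the scaRNA described above (chr3:69085084-69085468, minus strand), holds a stem of 16 pairs, most of them G-U pairs. It joins a GT-rich arm and a GT repeat, printed here in capitals throughout because every base pairs.
Gm22009 5′ arm: GTGTGTGCATGTATGT
Gm22009 3′ arm: GTGTGTGTGTGTGTGT
A stem found this way is a property of the letters, and whether it forms or is bound was not measured.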

How the data were processed

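RNA bound to STAU2 was sequenced from embryonic cortex in 12 immunoprecipitations, 3 per stage. The authors deposited whole-number counts of reads per merged peak and library, and a peak score per peak. Per the submitters' processing notes, HOMER 4.10 and the builds mm10 and GRCm38 were used; no source used here names the aligner, the counting or how reads with several matches were treated. The labels give the same code to the immunoprecipitation and the input of a replicate; the deposited count columns were read as immunoprecipitations because the table lists peaks.

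All 14297 rows with a gene entered 1 edgeR 4.0.16 quasi-likelihood fit (R 4.3.3) over the 4 stages, with TMM, filterByExpr (14106 rows kept) and Benjamini-Hochberg adjustment over all rows; adjusted p under 0.05 was called. The biological coefficient of variation was 0.342. Members were assigned a class from GENCODE vM21, and copies were sought with blastn 2.17.0 at 95% identity over 80% of the peak's exonic bases, so bases outside annotated exons were not searched. CPM are TMM-scaled. A stage at 0 counts was compared with a floor of 3 counts over its 3 libraries, and 1 to 3 counts were given as a ratio with a 95% exact binomial interval; both cover counting error only. Named members were the 6 highest, the 8 largest non-overlapping rises and falls per comparison, the 5 steadiest at 20 CPM or more and a list of 28 genes. Others are marked in the text. Passing the test and non-overlap between the 2 stages compared were conditions of naming the rises and falls. The members and lists were chosen with earlier results of these data known. The fit was also run on simulated counts with few rows changed and no shift in scaling between stages. That setting is unlike these data, so it does not test the scaling of the E11.5 libraries.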

Additional observations from a re-analysis of the deposited data

Results flagged for a closer look

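Rows with a Gm or Rik symbol outside 3′ UTRs and exons were not members, and 3 of them (Gm44574, Gm49450 and Gm49380) entered only as partners of antisense models. The table holds 199 such rows in an intron, in 162 genes, with 1.48% to 6.61% of gene-row counts per library, and 25 in a 5′ UTR, in 23 genes, with 0.0395% to 0.184%. They stand out because they carry counts in every library although the member counts do not include them. No control libraries were analysed here, so whether these counts exceed a background was not tested.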

How the results depend on the processing

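Counts of changed members are given in the order any stage, E13.5 against E11.5, E15.5 against E13.5, E17.5 against E15.5 and E17.5 against E11.5 (316, 127, 1, 71 and 329). Restricting the members to peaks with a score at or above the median left 133, 59, 0, 33 and 142, by construction from fewer rows. Total scaling gave 366 for E13.5 against E11.5 and 0 for E15.5 against E13.5; the cause was not tested. DESeq2 gave 326, 145, 1, 86 and 342. A replicate block gave 352, 151, 2, 103 and 359, and ended no call among 93 results for single members. Same-numbered libraries did not deviate together in every pair (12 of 18 correlations over 0.1, from -0.198 to 0.524), so the numbers were not taken to pair the samples, although all 6 pairs of replicate 2 correlated at 0.124 to 0.524. Leaving out 1 library gave 253 to 321, 71 to 130, 0 to 1, 34 to 81 and 296 to 336. The count for E13.5 against E11.5 was lowest without E13.5 replicate 1 (71), E11.5 replicate 1 (80) and E11.5 replicate 3 (84), and that for E17.5 against E15.5 without E17.5 replicate 1 (34), E17.5 replicate 3 (34), E15.5 replicate 1 (37) and E15.5 replicate 3 (40). As a share of all rows the members held 2.196%, 3.242%, 2.964% and 2.72% of counts by stage. Of the 93 single-member results, 75 kept their call without each library in turn, 89 with DESeq2 and 81 under total scaling, which reversed 1, C130071C03Rik (0.3122). Low counts limit members near 0 at E11.5.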
